A study of Mus musculus with 24 samples.

Results

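Fibroblast growth factor (FGF) and epidermal growth factor (EGF) receptors and the genes that ERK signaling induces to limit itself were followed across 6 groups of mouse neural cells. The 10 genes were chosen by name for their place in the pathway, with earlier results of these data known. They are the receptors Fgfr1, Fgfr2, Fgfr3 and Egfr, the inhibitors Spry1, Spry2 and Spry4, the ERK phosphatase gene Dusp6, and the transcription factor genes Etv4 and Etv5. All 10 were found among the 49671 counted genes, and all 10 passed the filter on low counts that left 19691 genes for testing.

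RNA-seq was performed on 24 libraries, 4 per group. NSC were neural stem cells from 1 embryonic stem cell line (GSC-5003, derived from C57BL/6N mice), maintained in medium with FGF and EGF at 20 ng/ml each and used at passages 50 to 60. AGES were astrocytes generated from these NSCs with 20 ng/ml BMP4 for 3 to 5 days, and the methods name neither FGF nor EGF for this step. Primary astrocytes came from C57BL/6J wild-type mice of both sexes, neonates of 4 to 8 days (neoAC) or adults of 100 to 140 days (AdAC). These cells were isolated by magnetic sorting for ACSA-2, with 2 mice per isolation. They were snap-frozen at once (direct) or first kept for 7 to 10 days in AstroMACS medium (CellC), with the same medium for both ages. Neonatal cerebral tissue and adult brain were dissociated with different kits, so age cannot be told apart from the tissue taken and the dissociation. Removal of olfactory bulb and cerebellum is stated only for direct isolation of adult cells, so the tissue of AdAC CellC and AdAC direct may have differed.

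When an FGF or EGF family ligand binds, the receptor tyrosine kinases pair and phosphorylate each other, adaptors recruit exchange factors to RAS, and RAF, MEK and ERK kinases are switched on in turn. ERK activity induces genes whose products damp the same pathway: Sprouty proteins act between receptor and RAF, and DUSP6 removes phosphate from ERK in the cytoplasm. The ETS factors ETV4 and ETV5 are also induced and carry part of the transcriptional response, so the transcripts of these genes are widely read as a sign of recent ERK signaling. Fgfr3 is a well-known astrocyte gene in the brain, and FGF and EGF keep neural stem cells dividing in culture.

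Total counts per library lay between 27904126 and 37997368, and levels are given as CPM, each library's counts brought to a common library size with edgeR's TMM factors, with the mean ± SD of 4 libraries where a group is summarised. A library differed from the mean of the other 3 of its group with an SD over genes of 0.199 to 0.486 on the log2 scale. NSC replicate 2 gave the highest of these values. Among cultured neonatal astrocytes, replicate 1 stood apart in the feedback genes, as described at the end. Defining astrocyte markers were not uniform: summed CPM of 10 astrocyte markers were 55392 to 60335 in AGES, where Gfap alone averaged 50503. The sums were 1003 to 1521 in AdAC CellC and 2019 to 2547 in NSCs, where Slc1a3 alone averaged 1499, against 219 in AdAC CellC. Slc1a2 and Aldoc also had lower means in AdAC CellC than in NSCs, but the other markers of this list had higher means in AdAC CellC. In AGES, Aldh1l1 and Gja1 had means of 15.0 and 10.3 CPM. Summed CPM of 8 oligodendrocyte markers were 26880 to 29753 in AdAC direct and 4380 to 11194 in AdAC CellC, against 397.9 or less in the other groups. Marker lists of further cell types moved with culture as well. Summed CPM of 6 fibroblast or meningeal markers went from 87.2 to 102.8 in AdAC direct up to 1085 to 1573 in AdAC CellC (all 6 higher) and from 206 to 326 in neoAC direct up to 448 to 707 in neoAC CellC (5 higher). Those of 5 ependymal markers were 141 to 207 in neoAC direct and 1419 to 1806 in neoAC CellC (all 5 higher), but 1221 to 1411 in AdAC direct and 228 to 322 in AdAC CellC (all 5 lower). Those of 6 mural cell markers were 323 to 670.3 in neoAC direct and 76.5 to 94.0 in neoAC CellC (all 6 lower), and 405 to 436 and 152 to 188 in the adult groups (5 lower, 1 higher). The part of these cells in the changes described here was not tested. In these bulk samples, fewer cells of a type and less RNA per cell cannot be told apart.

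The feedback genes were high in NSCs and low in AGES. In AGES against NSCs, 7 of the 10 genes were lower (Egfr and all 6 feedback genes) and 2 were higher (Fgfr2 and Fgfr3) at an edgeR adjusted p under 0.05, where 34.0% of all tested genes were lower and 31.7% higher. The median log2 fold change was −3.05 for the 10 genes and 0.00 for all tested genes. Culturing neonatal astrocytes lowered 8 of 10 and raised 0, against 31.3% of genes lower and 34.4% higher. Culturing adult astrocytes lowered 5 and raised 3, against 39.2% lower and 38.8% higher. Between the directly isolated groups, 8 genes were higher and 1 was lower in neonatal cells, against 35.0% and 36.4% of all genes.

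Among the cultured astrocytes, AGES had 1 gene higher and 4 lower than neoAC CellC, with 34.1% of all genes higher and 40.5% lower. Against AdAC CellC, AGES had 4 genes higher and 5 lower, with 31.0% of all genes higher and 45.2% lower. The 4 higher genes were the 4 receptors, and the median of all genes was itself at −0.23 on the log2 scale. neoAC CellC had 4 genes higher, again the receptors, and 2 lower than AdAC CellC, with 28.5% of all genes higher and 35.2% lower. The 3 comparisons with AGES share the AGES libraries, and those with a cultured group share its libraries too. AGES and the cultured primary cells differ in origin, strain, medium and BMP4, and these cannot be told apart here.

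**Figure D1:**
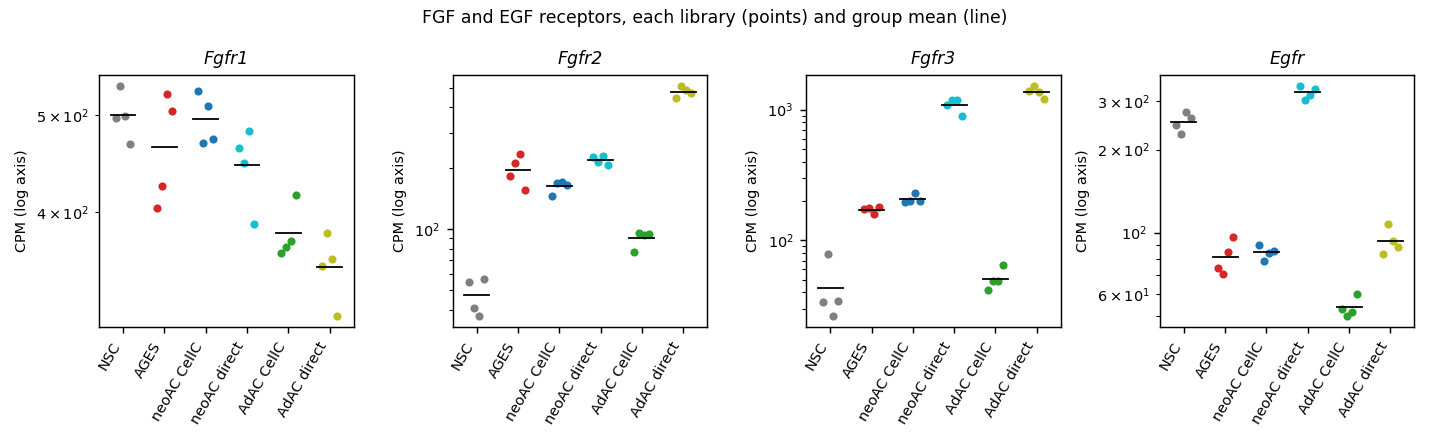
CPM of the 4 receptor genes (log axis) in each library, by group, with the group mean as a line. Fgfr1 stays between 315 and 535 CPM in all libraries, and Fgfr3 lies at 893 CPM or more in both directly isolated groups and at 78.3 CPM or less in NSC and AdAC CellC.

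Fgfr1, on chromosome 8 of GRCm38 from 25513654 to 25575718, encodes the FGF receptor most used by neural progenitors, and its exons share 164 bases with Gm16159 on the other strand. It was the steadiest of the 10 genes, with a lowest library of 315 CPM and a highest of 535. The order of means ran from NSC (499.7 ± 27.6 CPM) through neoAC CellC, AGES, neoAC direct and AdAC CellC to AdAC direct (352 ± 27.5 CPM), and each neighbouring pair of groups overlapped. AGES and NSC did not differ beyond the spread between replicates (log2 fold change −0.11, 95% interval −0.28 to 0.07, edgeR adjusted p = 0.31). Culture also left it within the spread, with log2 fold changes of 0.15 in neonatal cells (edgeR adjusted p = 0.134) and 0.11 in adult cells (edgeR adjusted p = 0.247). By age the gene was higher in neonatal cells, by 0.34 ± 0.09 (SE) on the log2 scale when directly isolated (edgeR adjusted p = 0.00145) and by 0.38 ± 0.09 in culture (edgeR adjusted p = 0.000602).

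Fgfr2, on chromosome 7 from 130162451 to 133123350, codes for a receptor that glial cells carry, oligodendrocytes included, and its exons share 314 bases with Ctbp2 on the same strand. The 4 AdAC direct libraries had 443, 509, 486 and 468 CPM. The neoAC direct libraries had 226, 214, 229 and 207 CPM, and the AGES libraries 183, 212, 234 and 156 CPM. NSCs were lowest, at 54.6, 41.0, 37.4 and 57.0 CPM. AdAC direct thus lay above every other library, neoAC direct and AGES overlapped, and so did AGES and neoAC CellC (146 to 171 CPM), while AdAC CellC (77.02 to 96.1 CPM) lay between those and NSC without touching either.

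Fgfr2 rose 4.13-fold from NSC to AGES (log2 fold change 2.05 ± 0.13 SE, edgeR adjusted p = 1.28e-13) and fell 5.28-fold when adult astrocytes were cultured (−2.40 ± 0.13, edgeR adjusted p = 5.36e-15). In neonatal astrocytes the fall in culture was 1.34-fold (−0.43 ± 0.12, edgeR adjusted p = 0.00286), and its call was lost when libraries were scaled by size alone (adjusted p = 0.158, the highest of 35 alternatives, which began at 0.000303). The 1.21-fold higher level of AGES than of neoAC CellC (edgeR adjusted p = 0.0442) held under 16 of 35 alternatives, with adjusted p from 0.0074 to 0.812. AdAC direct exceeded neoAC direct 2.18-fold (edgeR adjusted p = 7.5e-09). Of the 8 oligodendrocyte markers 7 also fell in adult culture and 0 rose, beside 39.2% and 38.8% of all genes. Erbb3, another receptor of the EGF receptor family that oligodendrocytes carry, fell as well (178 CPM in AdAC direct, 41.6 in AdAC CellC, 0.923 in neoAC direct). In neonatal culture, where Fgfr2 fell too, 6 of the 8 markers rose and 1 fell, beside 34.4% and 31.3% of all genes. The part of oligodendrocyte RNA in the Fgfr2 difference was not tested.

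Fgfr3, on chromosome 5 from 33721674 to 33737068, encodes the FGF receptor that marks astrocytes. It had 1378, 1516, 1361 and 1210 CPM in AdAC direct and 1077, 1181, 1192 and 893 CPM in neoAC direct. In culture the values were 196, 200.0, 232 and 199 CPM for neoAC CellC and 41.6, 48.8, 48.7 and 64.7 CPM for AdAC CellC. AGES had 174, 176, 158 and 179 CPM, and NSCs 33.7, 78.3, 26.6 and 34.2 CPM. Both directly isolated groups were far above all cells kept in vitro, and AdAC CellC overlapped NSC, whose replicate 2 lay above its other 3 libraries.

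Fgfr3 fell 26.8-fold in adult culture (log2 fold change −4.75 ± 0.25 SE, edgeR adjusted p = 2.38e-14) and 5.25-fold in neonatal culture (−2.39 ± 0.22, edgeR adjusted p = 1.69e-09). From NSC to AGES it rose 3.98-fold (1.99 ± 0.22, edgeR adjusted p = 2.35e-08). AGES did not differ from neoAC CellC past the threshold (−0.27, 95% interval −0.68 to 0.15, edgeR adjusted p = 0.26), although all 4 AGES libraries lay below all 4 of neoAC CellC. The call was made without NSC replicate 2 in the shared fit (adjusted p = 0.0396, with 0.00293 to 0.543 over all alternatives). In the same way the neonatal and adult directly isolated groups did not overlap, yet their log2 difference of −0.33 (95% interval −0.74 to 0.08) gave an edgeR adjusted p of 0.162, and 0.0125 without NSC replicate 2, with 0.356 as the highest value of any alternative. Exons of Fgfr3 share 998 bases with G630022F23Rik on the other strand, and whether counting used the strand is not given in the sources used here.

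Egfr, on chromosome 11 from 16752203 to 16918158, encodes the receptor for EGF, TGF-alpha and HB-EGF. The neoAC direct libraries had 340, 302, 314 and 333 CPM and the NSC libraries 246, 228, 274 and 260 CPM. The remaining groups were lower, with 83.5 to 107 CPM in AdAC direct, 79.0 to 90.3 in neoAC CellC, 70.5 to 96.5 in AGES and 50.1 to 59.7 in AdAC CellC. neoAC direct and NSC did not overlap with each other or with any other group, AdAC direct, neoAC CellC and AGES overlapped as neighbours, and AdAC CellC lay below all others.

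Unlike Fgfr2 and Fgfr3, Egfr fell from NSC to AGES, 3.08-fold (log2 fold change −1.62 ± 0.09 SE, edgeR adjusted p = 4.34e-14). It fell 3.802-fold in neonatal culture (edgeR adjusted p = 4.47e-15) and 1.74-fold in adult culture (edgeR adjusted p = 2.17e-08). Directly isolated neonatal cells exceeded adult ones 3.46-fold (1.79 ± 0.09, edgeR adjusted p = 9.35e-15), the opposite direction to Fgfr2. AGES and neoAC CellC differed by −0.05 on the log2 scale (95% interval −0.23 to 0.13, edgeR adjusted p = 0.614). Of 10 tested EGF family ligand genes, 3 were higher and 0 lower in AGES than in NSC, beside 31.7% and 34.0% of all genes. In neonatal culture 5 rose and 3 fell, beside 34.4% and 31.3%. Hbegf was 5.09-fold higher in AGES than in NSC (192 against 37.7 CPM, edgeR adjusted p = 1.18e-10), with means of 149 CPM in neoAC CellC and 89.0 in neoAC direct. Tgfa was 6.10-fold lower in neoAC CellC than in neoAC direct (edgeR adjusted p = 9.98e-15), with means of 22.5 CPM in AGES and 22.0 in NSC.

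**Figure D2:**
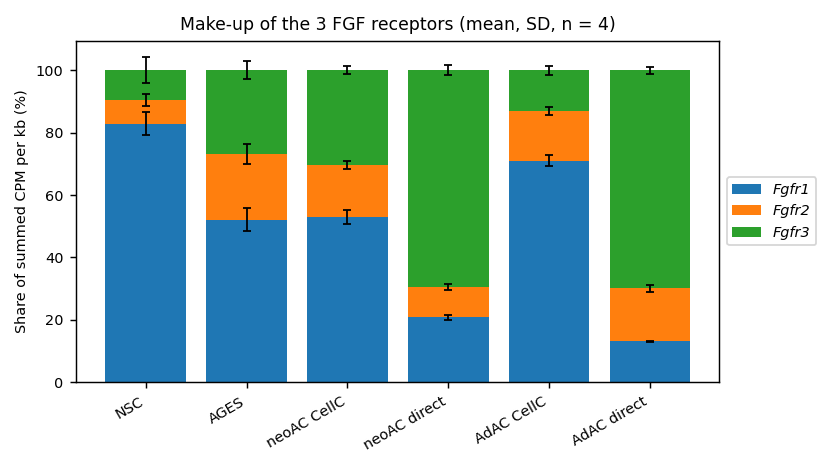
Share of each FGF receptor gene in the summed CPM per kb of exon of Fgfr1, Fgfr2 and Fgfr3 (%), as stacked bars of group means with SD over 4 libraries. Fgfr3 makes up 69.5% and 69.96% of the sum in the directly isolated groups and 9.58% in NSC, where Fgfr1 makes up 82.8%.

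Per kb of merged exon, the 3 FGF receptors can be set against each other. Their summed level was 61.2 ± 5.37 CPM per kb in NSC, 90.1 ± 6.24 in AGES, 94.8 ± 4.23 in neoAC CellC, 218 ± 23.8 in neoAC direct, 54.4 ± 4.27 in AdAC CellC and 273 ± 21.9 in AdAC direct. Fgfr1 supplied 82.8% ± 3.68 of that sum in NSC and 70.9% ± 1.75 in AdAC CellC. In AGES and neoAC CellC the Fgfr1 share was 52.1% ± 3.67 and 52.9% ± 2.25, with Fgfr3 at 26.8% ± 2.94 and 30.4% ± 1.35. In directly isolated cells Fgfr3 supplied 69.5% ± 1.62 (neonatal) and 69.96% ± 1.09 (adult), so the predominant transcript switched from Fgfr3 to Fgfr1 between direct and cultured cells of either age. The Fgfr3 shares of AGES (22.6% to 29.4%) and neoAC CellC (28.8% to 32.1%) overlapped. Egfr had 22.3 CPM per kb in NSC and 28.5 in neoAC direct, and 4.74 to 8.23 CPM per kb as means of the other groups.

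**Figure D3:**
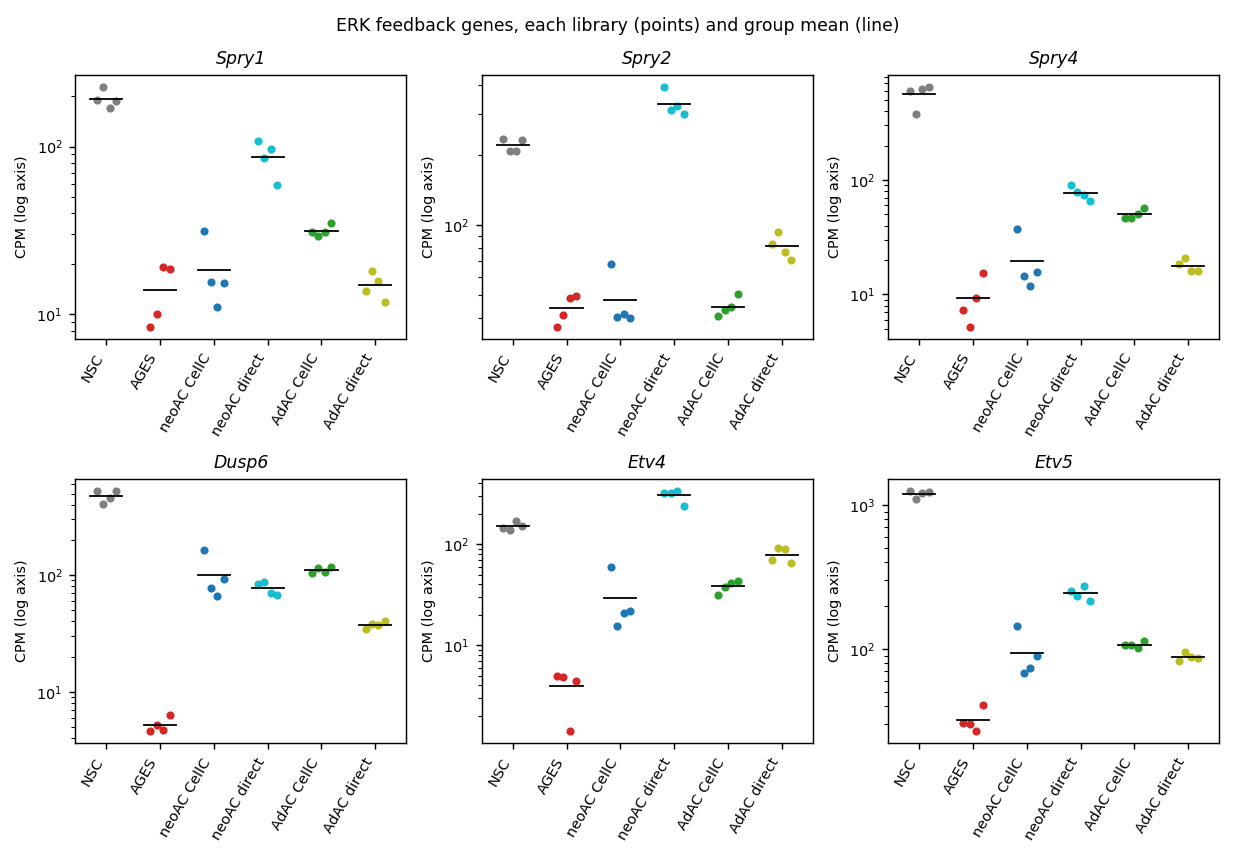
CPM of the 6 ERK feedback genes (log axis) in each library, by group, with the group mean as a line. NSCs are highest for Spry1, Spry4, Dusp6 and Etv5 and neoAC direct for Spry2 and Etv4, while AGES have the lowest mean for all 6.

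Sprouty proteins are inhibitors that growth factors induce and that act on the same pathway upstream of ERK. Spry4, on chromosome 18 from 38586247 to 38601415, had 601, 379, 630 and 656 CPM in the NSC libraries and 7.33, 5.22, 9.39 and 15.5 CPM in AGES. The fall was 60.5-fold (log2 fold change −5.92 ± 0.35 SE, edgeR adjusted p = 1.22e-12). Directly isolated neonatal astrocytes had 91.3, 78.0, 73.8 and 65.8 CPM and adult ones 18.6, 20.8, 15.9 and 16.0 CPM, a 4.33-fold difference (edgeR adjusted p = 1.77e-06). No library of one of these pairs reached the other group.

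In culture Spry4 moved in opposite directions with age. It fell 3.92-fold in neonatal cells, to 37.0, 14.6, 11.9 and 15.6 CPM (log2 fold change −1.97 ± 0.30 SE, edgeR adjusted p = 5.16e-06). It rose 2.81-fold in adult cells, to 46.4, 47.0, 50.1 and 56.9 CPM (1.49 ± 0.30, edgeR adjusted p = 0.000102). Cultured adult cells therefore had 2.54-fold more Spry4 than cultured neonatal cells (edgeR adjusted p = 0.000412), while directly isolated adult cells had less than directly isolated neonatal cells. AGES lay 2.11-fold below neoAC CellC (−1.08 ± 0.31, edgeR adjusted p = 0.0034), but this was −0.58 (adjusted p = 0.0396) without neoAC CellC replicate 1 and −0.49 (adjusted p = 0.129) without replicate 1 of every group, and the adjusted p went down to 0.000256 under other alternatives.

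Spry1, on chromosome 3 from 37639947 to 37644598, followed Spry4. Its mean was 193 ± 24.9 CPM in NSC and 14.0 ± 5.60 in AGES (log2 fold change −3.78 ± 0.29 SE, edgeR adjusted p = 8.46e-11). It was 87.2 ± 20.9 CPM in neoAC direct, where replicate 4 was lowest at 58.9, and 14.9 ± 2.77 in AdAC direct. Culture lowered it 4.75-fold in neonatal cells (edgeR adjusted p = 2.26e-07) and raised it 2.12-fold in adult cells (edgeR adjusted p = 0.00104). NSC, neoAC direct and AdAC CellC (29.3 to 34.8 CPM) formed separate levels, while AdAC CellC overlapped neoAC CellC through its replicate 1, and neoAC CellC, AdAC direct and AGES overlapped. The 1.72-fold lower level of neoAC CellC than of AdAC CellC (edgeR adjusted p = 0.0151) was lost when the fit held only those groups (adjusted p = 0.0621), and also without neoAC CellC replicate 2, 3 or 4 (adjusted p = 0.053, 0.0706 and 0.0518). Over 35 alternatives it was called in 27, with adjusted p from 0.000278 to 0.0986. Exons of Spry1 share 710 bases with Gm42922 on the other strand.

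Spry2, on chromosome 14 from 105891947 to 105896819, had a different order, with neoAC direct highest. It had 394, 313, 323 and 302 CPM there, 235, 207, 208 and 231 CPM in NSC, and 82.6, 93.4, 76.9 and 71.1 CPM in AdAC direct. The 3 groups were separate from each other and from all groups below them. AGES (36.6 to 49.6 CPM), AdAC CellC (40.9 to 50.4 CPM) and neoAC CellC (39.9 to 68.3 CPM) overlapped. Spry2 fell in culture at both ages, 7.01-fold in neonatal cells (log2 fold change −2.81 ± 0.15 SE, edgeR adjusted p = 1.88e-14) and 1.82-fold in adult cells (−0.86 ± 0.14, edgeR adjusted p = 5.04e-06), and it was 5.003-fold lower in AGES than in NSC (edgeR adjusted p = 2.52e-13). The 3 cultured astrocyte groups did not differ past the threshold, with log2 differences of −0.11 (AGES against neoAC CellC, 95% interval −0.38 to 0.17), −0.02 (AGES against AdAC CellC, −0.30 to 0.25) and 0.09 (neoAC CellC against AdAC CellC, −0.19 to 0.36), each with an edgeR adjusted p of at least 0.489. Per kb, Spry2 was the most abundant of these Sprouty transcripts in every group but NSC (159 CPM per kb in neoAC direct, where Spry1 had 30.02 and Spry4 16.2). In NSC Spry4 led, at 119 CPM per kb against 106 for Spry2.

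Dusp6, on chromosome 10 from 99263231 to 99267489, encodes the phosphatase that acts on ERK itself. The NSC libraries had 527, 403, 461 and 523 CPM and the AGES libraries 4.60, 5.22, 4.71 and 6.35 CPM. Every NSC library was far above every AGES library, and the 91.4-fold difference (log2 fold change −6.51 ± 0.23 SE, edgeR adjusted p = 1.71e-17) had the greatest size among the 10 genes in this comparison. Above AGES came AdAC direct with 34.4, 38.4, 37.2 and 40.6 CPM, then neoAC direct with 83.7, 87.7, 70.2 and 67.8. AdAC CellC had 104, 114, 107 and 117 CPM, and neoAC CellC had 162, 77.4, 66.0 and 91.7. neoAC CellC overlapped both AdAC CellC and neoAC direct, and AGES stood alone at the bottom.

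In every primary group Dusp6 was above AGES. It was 19.0-fold lower in AGES than in neoAC CellC (log2 fold change −4.25 ± 0.21 SE, edgeR adjusted p = 6.7e-15) and 21.1-fold lower than in AdAC CellC (−4.40 ± 0.21, edgeR adjusted p = 3.7e-15). Culture of adult cells raised it 2.93-fold (edgeR adjusted p = 4.81e-08). Culture of neonatal cells gave a log2 fold change of 0.36 ± 0.18 (edgeR adjusted p = 0.0804), which was called without neoAC CellC replicate 2 or 3 (adjusted p = 0.034 and 0.00905, with 0.00576 to 0.902 over all alternatives). Directly isolated neonatal cells exceeded adult ones 2.06-fold (edgeR adjusted p = 2.02e-05).

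The sequences before the start sites of Dusp6, Spry2, Egfr and Etv5 are shown because these 4 genes were lower in AGES than in NSCs and their windows hold no annotated exon. For Etv5 this is true of 1 of its 2 start sites in the table, the one shown. The RefSeq promoter table (GRCm38.p6) had entries for 7 of the 10 genes, and Fgfr1, Spry4 and Etv4 were not among them. The 250 bases before each start were searched on both strands for the ETS core CGGAAG, the PEA3-type ETS motif AGGAAG, the AP-1 site TGANTCA and the cAMP response element TGACGTCA, which do not overlap one another in these windows. The lines below run 5′ to 3′ on the gene's strand, with capitals at matches to the ETS motifs.
Dusp6, chr10:99262981-99263230, plus strand: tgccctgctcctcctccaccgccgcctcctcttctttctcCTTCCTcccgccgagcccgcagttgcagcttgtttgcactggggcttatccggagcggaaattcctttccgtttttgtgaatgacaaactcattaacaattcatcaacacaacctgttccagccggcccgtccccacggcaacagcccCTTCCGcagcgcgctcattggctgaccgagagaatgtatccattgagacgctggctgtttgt
Spry2, chr14:105896820-105897069, minus strand: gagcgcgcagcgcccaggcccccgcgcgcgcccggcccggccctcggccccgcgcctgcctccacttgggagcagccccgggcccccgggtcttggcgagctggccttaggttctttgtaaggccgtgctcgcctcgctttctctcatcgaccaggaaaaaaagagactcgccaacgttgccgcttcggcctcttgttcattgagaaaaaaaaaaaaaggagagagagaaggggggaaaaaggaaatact
Egfr, chr11:16751953-16752202, plus strand: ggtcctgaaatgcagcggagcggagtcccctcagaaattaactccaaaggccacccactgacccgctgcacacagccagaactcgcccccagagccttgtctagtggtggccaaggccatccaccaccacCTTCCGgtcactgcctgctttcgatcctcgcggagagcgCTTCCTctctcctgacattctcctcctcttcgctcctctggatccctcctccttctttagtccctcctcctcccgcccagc
Etv5, chr16:22438369-22438618, minus strand: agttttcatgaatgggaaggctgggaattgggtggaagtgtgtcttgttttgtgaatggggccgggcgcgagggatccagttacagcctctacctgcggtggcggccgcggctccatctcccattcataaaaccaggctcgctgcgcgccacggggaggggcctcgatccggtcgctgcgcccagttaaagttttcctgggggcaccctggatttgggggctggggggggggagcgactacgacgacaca
The Dusp6 and Egfr windows each held 1 match to CGGAAG and 1 to AGGAAG, in both genes on the opposite strand, and the Spry2 and Etv5 windows shown held neither. Of all 32851 promoter windows of this length in the table, 13.6% held CGGAAG and 29.5% held AGGAAG. The Fgfr2 window held 1 match to AGGAAG, and those of Fgfr3, Spry1 and the other Etv5 start held none to either. The AP-1 and cAMP response letters, held by 6.7% and 1.5% of all windows, had 0 matches in the windows of the 7 genes. A match describes letters in this window and not a bound site.

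Etv4 and Etv5 encode ETS transcription factors of the PEA3 family that FGF signaling induces. Etv5, on chromosome 16 from 22381309 to 22439719, had 1254, 1098, 1208 and 1232 CPM in NSC and 30.8, 30.2, 27.0 and 41.1 CPM in AGES. This 37.1-fold difference (log2 fold change −5.21 ± 0.19 SE, edgeR adjusted p = 7.33e-18) set AGES below every primary library, of which the lowest had 68.4 CPM. neoAC direct came next to NSC, with 255, 233, 273 and 217 CPM, and did not overlap any other group. Below it AdAC CellC (102 to 114 CPM), neoAC CellC (68.4 to 145 CPM) and AdAC direct (82.1 to 96.0 CPM) overlapped as neighbours.

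Etv5 fell 2.60-fold in neonatal culture (log2 fold change −1.38 ± 0.16 SE, edgeR adjusted p = 4.71e-08). In adult culture the difference was 0.28 ± 0.16 (edgeR adjusted p = 0.106), though every AdAC CellC library exceeded every AdAC direct library. The adult difference was called in a fit of those groups alone (0.30, adjusted p = 0.000529) and in the shared fit without neoAC CellC replicate 1 (adjusted p = 0.0148), and the adjusted p reached 0.394 under other alternatives. AGES were 2.92-fold below neoAC CellC (edgeR adjusted p = 5.21e-09) and 3.32-fold below AdAC CellC (edgeR adjusted p = 6.43e-10). Per kb, Etv5 was the most abundant of the 10 transcripts in NSC, at 292 CPM per kb.

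Etv4, on chromosome 11 from 101769742 to 101785371, was highest in neoAC direct and not in NSC. It had 319, 321, 337 and 237 CPM in neoAC direct, 144, 139, 171 and 152 CPM in NSC, and 69.5, 91.6, 88.9 and 65.8 CPM in AdAC direct. AdAC CellC had 31.7, 37.5, 41.6 and 43.4 CPM, neoAC CellC 58.9, 15.6, 21.0 and 21.8 CPM, and AGES 4.99, 4.84, 1.41 and 4.41 CPM. Apart from AdAC CellC and neoAC CellC, no neighbouring groups overlapped. In culture Etv4 fell 10.4-fold in neonatal cells (log2 fold change −3.38 ± 0.33 SE, edgeR adjusted p = 9.31e-09) and 2.05-fold in adult cells (−1.03 ± 0.31, edgeR adjusted p = 0.00431). AGES were 38.8-fold below NSC (edgeR adjusted p = 3.43e-11), 7.49-fold below neoAC CellC (edgeR adjusted p = 1.89e-07) and 9.88-fold below AdAC CellC (edgeR adjusted p = 2.61e-08).

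**Figure D4:**
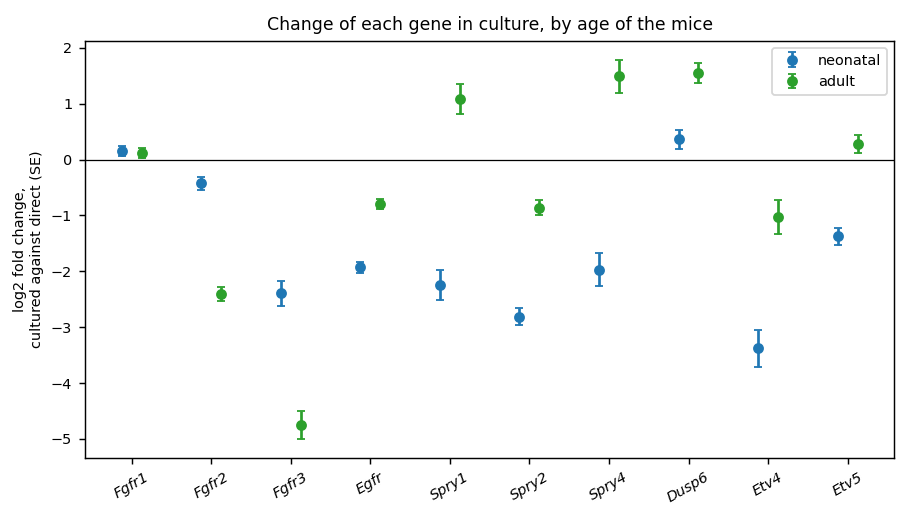
Log2 fold change of cultured against directly isolated astrocytes for each of the 10 genes, with SE from the edgeR fit, in neonatal (blue) and adult (green) cells. For Spry1 and Spry4 the neonatal points lie below 0 and the adult points above it, and for Fgfr2 and Fgfr3 the adult points lie below the neonatal ones.

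Whether culture acted alike on cells of both ages was tested for each gene as an interaction, the log2 fold change in adult culture minus that in neonatal culture. It was positive for 7 genes and negative for 2 at an edgeR adjusted p under 0.05, where 35.4% of all genes were positive and 33.2% negative. The 2 negative ones were Fgfr2 (−1.97 ± 0.17 SE, edgeR adjusted p = 1.82e-10) and Fgfr3 (−2.35 ± 0.30, edgeR adjusted p = 3.37e-07), whose fall was steeper in adult cells. The 7 positive ones were Egfr and all 6 feedback genes, from 1.13 for Egfr to 3.46 for Spry4. For Egfr, Spry2 and Etv4 this reflects a smaller fall in adult cells, and for Spry1 and Spry4 a rise in place of a fall. Dusp6 (1.19 ± 0.25, edgeR adjusted p = 0.000232) was called as higher in adult culture alone, and Etv5 (1.66 ± 0.22, edgeR adjusted p = 5e-07) as lower in neonatal culture alone. Fgfr1 gave −0.04 (95% interval −0.29 to 0.21, edgeR adjusted p = 0.796).

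Directly isolated neonatal cells, the baseline of the neonatal falls, also had the highest immediate early genes, which respond within minutes to many stimuli, tissue dissociation included. Summed CPM of 10 such genes were 9319 to 13584 in neoAC direct, 1320 to 2065 in AdAC direct and 176 to 760 in the other groups. All 10 were higher in neoAC direct than in AdAC direct and all 10 fell in neonatal culture, with Nr4a1 at 1381 CPM against 11.9. In NSC, where 4 of the 6 feedback genes were highest, these genes were lowest, at 176 to 357 CPM in sum. In AGES against NSC, 6 of the 10 immediate early genes were higher, 1 was lower and 3 were not called, beside 31.7% higher and 34.0% lower among all genes. Fos was 11.3-fold higher (edgeR adjusted p = 1.18e-08), while Egr1 had a mean of 25.3 CPM in AGES and 67.3 in NSC. All 6 feedback genes were lower in AGES. The part of dissociation in the neonatal values was not tested.

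Markers of dividing cells also moved with the feedback genes in part. Summed CPM of 7 proliferation markers were 3365 to 3499 in NSC and 26.4 to 30.9 in AGES, and their part in the AGES difference was not tested. In AdAC direct the sums were 19.2 to 22.8. There Spry2, Spry4, Dusp6, Etv4 and Etv5 lay above AGES in every library, and Spry1 (11.8 to 18.2 CPM) overlapped AGES (8.43 to 19.2 CPM). The gap was narrow for Spry4, with a lowest value of 15.93 CPM against a highest of 15.50 in AGES. AdAC direct and AGES also differ in origin, strain and culture, and what sets these levels was not tested. All 7 markers rose in culture at both ages, to 828 to 1013 in adult cells and from 296 to 471 up to 757 to 1020 in neonatal cells. Their part in the culture differences was not tested.

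**Figure D5:**
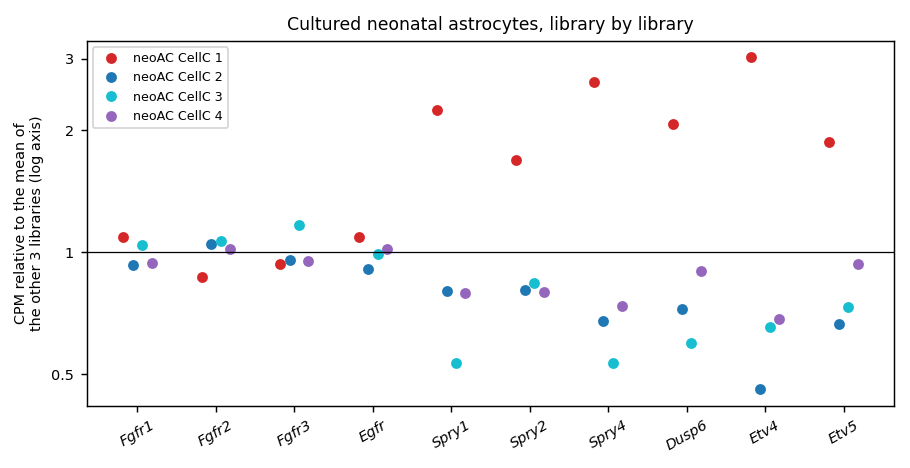
CPM of each of the 10 genes in each neoAC CellC library relative to the mean of the other 3 libraries of the group (log axis, 1 marks equality). Replicate 1 lies at 1.69 to 3.03 times for the 6 feedback genes and at 0.870 to 1.09 times for the 4 receptors.

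Within the cultured neonatal astrocytes, replicate 1 carried more of all 6 feedback transcripts than any of the other 3. Its level relative to their mean was 2.25 for Spry1, 1.69 for Spry2, 2.64 for Spry4, 2.07 for Dusp6, 3.03 for Etv4 and 1.87 for Etv5, whereas the 4 receptors lay between 0.870 and 1.09. Among the 15105 genes with a mean of at least 1 CPM, 32.2% were highest in replicate 1. Of the same genes, 3.17% were at least 1.5 times the mean of the other 3 libraries in replicate 1. Of the 14 other feedback inhibitor genes 10 were highest there, Spry3, Dusp9, Errfi1 and Lrig3 being the exceptions, and so were all 8 other ERK-responsive genes. Examples chosen after their values were seen are Ccnd1, which encodes cyclin D1, with 876 CPM against 271 to 424, and Spred2, a Sprouty-related inhibitor gene, with 99.5 against 47.8 to 58.2.

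Genes of cell state moved in the same library. All 7 proliferation markers and all 7 neural stem cell markers were highest in replicate 1, with Mcm2, a replication helicase subunit gene, at 84.2 CPM against 48.2 to 58.8, Nes at 1277 against 816 to 911 and Olig2 at 194 against 62.3 to 106. Others were barely higher: relative to the mean of the other libraries of the group, Sox2 was at 1.00, Sox1 at 1.06, Vim at 1.08 and Top2a at 1.14. Of 10 astrocyte markers 2 were highest and 4 lowest there. The 2 highest were Aldh1l1, at 364 CPM against 255 to 303, and Slc1a3, at 1215 against 1016 to 1116. Aqp4, the astrocyte water channel gene, was among the lowest, at 614 CPM against 967 to 1145. Their part in the feedback values was not tested. This is 1 library, and its difference from the others has no replicate.

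This library was singled out by its high values of these same feedback genes, so calls made without it follow in part from that choice. Leaving this library out changed which feedback genes separated the cultured groups. Against AdAC CellC, neoAC CellC then had less Dusp6 (log2 fold change −0.49, edgeR adjusted p = 0.00109), Etv4 (−0.98, edgeR adjusted p = 0.000725) and Etv5 (−0.47, edgeR adjusted p = 0.0012), none of which was called with it (adjusted p = 0.468, 0.266 and 0.306). Each of the 3 was called in 2 of 35 alternatives, both without this library, and their highest adjusted p were 0.959, 0.659 and 0.804. The Spry1 and Spry2 differences between AGES and neoAC CellC, not called in either case, went from −0.38 to 0.01 and from −0.11 to 0.12. Dusp6, Etv4 and Etv5 in AGES remained below neoAC CellC at an adjusted p under 0.05 without it.

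The wider pathway was read in lists chosen by function, with earlier results of these data known. Of 14 other feedback inhibitor genes, 8 were lower and 3 higher in AGES than in NSC, with a median log2 fold change of −1.13, beside 34.0% lower and 31.7% higher among all tested genes. Among them Dusp4, an ERK phosphatase of the nucleus, fell 24.3-fold (from 149 to 6.13 CPM, edgeR adjusted p = 7.53e-18), and Il17rd, an FGF receptor antagonist also called Sef, fell 6.54-fold (edgeR adjusted p = 2.74e-16). Of 8 other ERK-responsive genes, 6 were lower and 0 higher, led by Ccnd1 (24.6-fold, edgeR adjusted p = 9.98e-10) and Myc (8.78-fold, edgeR adjusted p = 7.01e-16). Of 11 genes of the RAS to ERK cascade 5 were higher and 4 lower, near the shares of all genes. Among them Ksr1, the scaffold of the cascade, rose 4.35-fold (edgeR adjusted p = 2.22e-16). Against neoAC CellC, 8 of the 14 other feedback inhibitors were higher in AGES and 4 lower, beside 34.1% and 40.5% of all genes. Against AdAC CellC, 2 were higher and 9 lower, beside 31.0% and 45.2%. Of the 8 other ERK-responsive genes, AGES had 1 higher and 6 lower than neoAC CellC, and 0 higher and 8 lower than AdAC CellC.

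In adult culture, 8 of the 14 other feedback inhibitors rose and 4 fell, and 7 of the 8 other ERK-responsive genes rose and 1 fell, where 38.8% of all genes rose and 39.2% fell. Dusp4 rose 10.8-fold (edgeR adjusted p = 3.2e-15) and Fosl1, an AP-1 subunit gene, went from a mean of 0.0453 to 45.6 CPM (edgeR adjusted p = 2.37e-14). Of 10 tested EGF family ligand genes 5 rose and 3 fell. Ereg was at 40.9 CPM against 0.130 (edgeR adjusted p = 1.13e-16) and Areg at 9.38 against 0.443 (edgeR adjusted p = 4.21e-10), while the more abundant Tgfa, named after its values were seen, fell from 150.5 to 84.9 CPM (edgeR adjusted p = 1.23e-06). In neonatal culture, 8 of the 14 other feedback inhibitors fell and 3 rose, and 4 of the 8 other ERK-responsive genes fell and 3 rose, where 31.3% of all genes fell and 34.4% rose. Il17rd was down 15.8-fold (edgeR adjusted p = 2.32e-18) and Lrig1, an EGF receptor inhibitor gene, down 3.33-fold (edgeR adjusted p = 4.13e-12). Between the cultured ages, all 8 other ERK-responsive genes and 11 of the 14 other feedback inhibitors were lower in neoAC CellC than in AdAC CellC, with 0 higher, where 35.2% of all genes were lower and 28.5% higher.

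Apart from Fgf1 and Fgf2, the highest group mean of an FGF ligand gene was 8.52 CPM, for Fgf18 in AdAC CellC. Of the 14 FGF ligand genes, 3 did not pass the filter. Fgf1 had 292 CPM in NSC, 153 in AGES and 46.0 in AdAC CellC, and Fgf2 had 30.8 CPM in neoAC CellC and 2.82 in AGES. AdAC CellC had 5.91 CPM of Fgf10, which was at 0 counts in all AGES libraries.

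Over the 24 libraries, which fall into 6 groups and so are not 24 independent points, the genes most like each of the 10 in log2 CPM were listed from 15105 genes. Some of the feedback genes appeared in these lists. Spry4 was among the 3 nearest to Spry1 (Pearson r = 0.955) and to Etv5 (r = 0.971), and Etv5 was among those nearest to Spry4. Slc39a10 (r = 0.979 with Spry4 and 0.976 with Etv5) and Cdc25b (0.969 and 0.985) were shared by both. Dusp6 was nearest to Dna2 (r = 0.992), Tmpo and Pask, Spry2 to Trib2 (r = 0.971), and Etv4 to Mmab (r = 0.960). Of the receptors, Fgfr3 was nearest to Caskin1 (r = 0.983), Fgfr2 to Vamp2 (r = 0.975), Egfr to Svep1 (r = 0.970) and Fgfr1 to Pigt (r = 0.907).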

How the data were processed

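RNA was sequenced from 24 libraries of 6 groups, with stranded, polyadenylated libraries in paired-end mode. The authors aligned reads to GRCm38 with STAR 2.7.3a, allowing several alignments per read, and counted them on exons with featureCounts on Gencode vM12. Raw counts per gene were deposited, and strand and pair settings are not given in the sources used here. Positions, exon lengths and symbols came from Gencode vM21.

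Counts were filtered with filterByExpr, scaled by TMM and tested two-sided with edgeR 4.0.16 (quasi-likelihood, robust) in R 4.3.3, in 1 fit of 6 groups, with Benjamini-Hochberg adjustment over 19691 genes and a threshold of 0.05. SE is the absolute log2 fold change over the root of the F statistic, and the 95% intervals are normal intervals from it. Replicates were separate isolations or independent cultures. The fit was also run on counts simulated with the same spread for all genes and few genes changed. That setting is simpler than these data, so it does not test how the fit handles their spread. From each list, up to 2 called genes per comparison and with a mean of 5 CPM or more in 1 group, ranked by log2 fold change, could be named, and for each of the 10 genes the 3 most alike. The 10 genes, the lists and the motifs were chosen with earlier results of these data known. Alternatives were DESeq2 1.42.0 size factors and its Wald test, library size only, no filter, at least 10 counts in every library, only the compared groups, a replicate block, a log2 fold change over 1, and leaving out each replicate number or, added after seeing the data, each library.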

Additional observations from a re-analysis of the deposited data

Results flagged for a closer look

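Of the 60 combinations of gene and group, 7 had a library far from the other 3 of its group, where chance gives about 3. Of these, 3 were neoAC CellC replicate 1, which had 68.3 CPM of Spry2 against 39.9 to 41.6 in the others, 37.0 CPM of Spry4 against 11.9 to 15.6, and 58.9 CPM of Etv4 against 15.6 to 21.8. NSC replicate 2 had 78.3 CPM of Fgfr3 against 26.6 to 34.2. neoAC CellC replicate 3 had 232 CPM of Fgfr3 against 196 to 200.0. AdAC CellC replicate 1 had 77.02 CPM of Fgfr2 against 93.4 to 96.1. AGES replicate 3 had 1.41 CPM of Etv4 against 4.41 to 4.99.

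The change in culture differed between adult and neonatal cells, by the edgeR test of the interaction, for 9 of the 10 genes. The difference, adult minus neonatal on the log2 scale, was −1.97 for Fgfr2, −2.35 for Fgfr3 and 1.13 for Egfr. It was 3.33 for Spry1, 1.95 for Spry2 and 3.46 for Spry4. It was 1.19 for Dusp6, 2.34 for Etv4 and 1.66 for Etv5.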

How the results depend on the processing

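Over 80 values (10 genes in 7 comparisons and the interaction) and 35 alternatives each, 2717 of 2800 kept their direction and their side of the threshold. Another 31 lost the call, 31 gained it and 21 changed sign. Many alternatives left out 1 library, often from a group outside the comparison. There a value could move only through the shared filter, scaling and spread, so its agreement says little. Of the called values, 1 changed sign: Fgfr2 in AGES against neoAC CellC, −0.034 with library size only, a scaling that moved the median of all genes in that comparison from −0.07 to −0.37. Of values not called, Fgfr1 in AGES against NSC was 0.004 with at least 10 counts in every library. Spry2 in AGES against AdAC CellC was 0.018 with DESeq2 size factors or the DESeq2 Wald test, 0.099 with no filter and 0.080 with only the groups compared. The causes were not tested.

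The number of genes called in AGES against neoAC CellC went from 5 to 9 with library size only, and to 3 without replicate 1. In neoAC CellC against AdAC CellC it went from 6 to 2 with an added log2 fold change over 1. Leaving out single libraries or replicate numbers gave counts of 3 to 6 and 5 to 9 in these comparisons, and counts within 1 of the main ones in the other 6. It gave log2 fold changes of −0.144 to 0.017 (Egfr), −0.749 to 0.177 (Spry1) and −0.244 to 0.193 (Spry2) in AGES against neoAC CellC, −0.084 to 0.055 (Spry2) in AGES against AdAC CellC, −0.179 to 0.232 (Spry2) and −0.525 to 0.018 (Dusp6) in neoAC CellC against AdAC CellC, and −0.083 to 0.021 (Fgfr1) in the interaction.

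Same-numbered libraries of different groups did not pair: the correlation of their deviations was at most 0.106. A replicate block left the called genes at 9 in AGES against NSC and changed 1 call among the 80 values, that of Fgfr2 in AGES against neoAC CellC (adjusted p = 0.0565). Where a group was left with 3 libraries, the spread was shared with the other groups. The AGES libraries still held 118 to 193 counts of Dusp6 and 44 to 167 of Etv4.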
